A study of Mus musculus with 8 samples.

Results

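Peaks of open chromatin at the promoters of proteasome genes and of genes for ubiquitin-conjugating enzymes were examined by ATAC-seq in bone marrow-derived macrophages (BMDMs). A peak was taken as a member where it lay within 2000 bp of an annotated transcription start site (TSS) and its nearest gene had a symbol starting with Psma to Psmg and a digit, or with Ube2 and a letter. Among the peaks of the wild-type (WT) libraries, 36 of 9698 peaks were members, 16 of them Psm and 20 Ube2 peaks at 34 genes. In the table of the NCoR f/f libraries, 79 of 24867 peaks were members, 37 of them Psm and 42 Ube2 peaks at 64 genes. The symbol pattern also took in Psmc3ip, whose product acts in meiotic recombination, and Ube2cbp, whose product is a ubiquitin ligase, and both were kept under the rule and named apart.

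The proteasome is the protease that degrades proteins tagged with ubiquitin. Its 20S core is built from alpha (Psma) and beta (Psmb) subunits, and the 19S cap from ATPase (Psmc) and non-ATPase (Psmd) subunits, while Psme genes encode activators, Psmf1 an inhibitor and Psmg genes assembly chaperones. Ubiquitin passes from an E1 enzyme to an E2 enzyme (Ube2) and then, with an E3 ligase, to its target. In macrophages, inflammatory signals lead to the exchange of beta subunits for the immunoproteasome subunits Psmb8, Psmb9 and Psmb10, and chains made by Ube2n with Ube2v1 serve in Toll-like receptor signaling.

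The WT cells were of 3 conditions with 2 libraries each, namely vehicle (Veh), the TLR4 agonist Kdo2 lipid A (KLA), and KLA with RGFP966, an inhibitor of the deacetylase HDAC3, all labelled 6 h. For the RGFP966 + KLA libraries the treatment label gave KLA alone and RGFP966 came from the title. A further pair of Veh libraries at 6 h came from mice labelled NCoR1 flox/flox, with no Cre named in the label, and had a table of its own, so its levels were set beside those of the WT table as a description and not tested against them. The methods of the study took the BMDMs from C57BL/6 mice, differentiated the cells with M-CSF and starved them of serum before treatment. By these methods RGFP966 was given together with the serum starvation, and so ahead of KLA, while the labels give no time for RGFP966. No label tied a library to an animal or culture, so p-values measured only the spread between these libraries, which may be technical.

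Total tags in peaks ranged from 116733 to 202523 in the WT libraries and were 372367 and 509741 in the NCoR f/f libraries. Member peaks were shallow, with median counts of 9 to 17 tags per WT library and of 15 and 23 tags per NCoR f/f library, close to the medians of all promoter peaks (11 to 19 tags, and 15 and 21 tags). Peaks at the promoters of 2 of 9 macrophage markers (Cd68 and Cebpa) were present in the WT table, and of 6 of 9 in the NCoR f/f table, where Csf1r, Adgre1 and Lyz2 had none. Of 5 T cell, 5 B cell, 4 fibroblast and 3 epithelial markers, 1 (Tcf7, in the NCoR f/f table, at 29.5 to 33.4 normalized tags, defined here as tags per 1000000 tags in peaks) had a promoter peak. The summed count at the 2 WT marker genes was 248.2 and 297.3 normalized tags in Veh, 197.8 and 239.9 in KLA, and 266.6 and 247.2 in RGFP966 + KLA, so that both KLA libraries were below the other 4. The part of this difference in the results below was not tested.

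The sequences of 6 member peaks are printed because they carry the values described below: Ube2r2 held the member called as changed, Ube2n took the highest share of tags of the WT members, Psmc4 and Psmd8 had the largest differences of the Psm genes, and Psmc6 and Psmb2 show the ETS and CRE letters discussed after them. Each is the stretch of the peak, up to 150 bases, that held no annotated exon, read from the GRCm38.p6 (mm10) genome of RefSeq on the strand of the gene, 5′ to 3′, with capitals at the matches to the 10 motifs searched. Ube2r2 is at chr4:41135363-41135512 (+), Ube2n at chr10:95514944-95515093 (+), Psmc4 at chr7:28050102-28050251 (-), Psmd8 at chr7:29180702-29180822 (-), Psmc6 at chr14:45329638-45329787 (+) and Psmb2 at chr4:126677480-126677629 (+).
Ube2r2: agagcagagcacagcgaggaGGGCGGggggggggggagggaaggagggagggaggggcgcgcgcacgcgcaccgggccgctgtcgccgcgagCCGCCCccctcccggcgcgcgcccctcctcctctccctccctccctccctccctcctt
Ube2n: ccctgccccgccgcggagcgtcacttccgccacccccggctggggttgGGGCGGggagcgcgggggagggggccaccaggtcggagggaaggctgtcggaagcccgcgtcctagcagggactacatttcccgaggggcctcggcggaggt
Psmc4: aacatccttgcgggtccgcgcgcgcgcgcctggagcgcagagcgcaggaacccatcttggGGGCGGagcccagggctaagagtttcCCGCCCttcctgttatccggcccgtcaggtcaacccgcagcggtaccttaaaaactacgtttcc
Psmd8: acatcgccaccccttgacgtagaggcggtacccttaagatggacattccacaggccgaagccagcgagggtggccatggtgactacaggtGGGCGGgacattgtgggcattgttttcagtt
Psmc6: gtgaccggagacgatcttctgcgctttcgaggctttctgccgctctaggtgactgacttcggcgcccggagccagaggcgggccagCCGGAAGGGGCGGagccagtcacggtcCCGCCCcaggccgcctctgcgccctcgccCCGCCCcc
Psmb2: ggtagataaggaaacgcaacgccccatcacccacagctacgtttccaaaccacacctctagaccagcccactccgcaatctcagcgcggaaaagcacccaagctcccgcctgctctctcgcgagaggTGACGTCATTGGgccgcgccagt

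Letters for 10 transcription factor motifs were searched on both strands in the 200 bp at the centre of each promoter peak, and a match is a description of the letters only. The ETS letters CCGGAAG were in 8 of 16 WT Psm peaks (50.0%), in 2 of 20 WT Ube2 peaks (10.0%) and in 16.4% of all 4906 WT promoter peaks on the assembled chromosomes. In the NCoR f/f table they were in 13 of 37 Psm peaks (35.1%), 6 of 42 Ube2 peaks (14.3%) and 14.6% of 11820 promoter peaks. The Psm peaks with these letters in the WT table were those of Psmc6, Psmd2, Psmd6, Psmd7, Psmd11, Psmd14, Psma6 and Psmg1. Of the 36 WT members 34 overlapped an NCoR f/f member, so the counts of both tables are not independent.

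The Sp1 letters GGGCGG were frequent everywhere, in 13 of 16 WT Psm peaks (81.2%), 12 of 20 WT Ube2 peaks (60.0%) and 68.1% of WT promoter peaks. The interferon response letters GAAANNGAA were in 8 of 37 NCoR f/f Psm peaks (21.6%) against 3.47% of promoter peaks there, and in 2 of 16 WT Psm peaks (12.5%) against 3.47%. Those 8 were the peaks of Psmb3, Psmb4, Psmc2, Psmd4, Psmd7, Psme1, Psmf1 and Psmg4. The NCoR f/f peaks of Psmb8, Psmb10 and Psme2 did not hold these letters. The antioxidant response letters TGACNNNGC, read by factors that include those known to induce proteasome genes, were in 6 of 37 NCoR f/f Psm peaks (16.2%) against 11.5% of promoter peaks, and in 0 of 16 WT Psm peaks against 12.6%. The CRE letters TGACGTCA were in 1 NCoR f/f Psm peak, Psmb2, where they shared a base with the NFY letters of the other strand in the sequence printed above. The NFY letters CCAAT were in 18.8% of WT Psm, 30.0% of WT Ube2 and 43.5% of WT promoter peaks. The NF-kB letters GGANTTTCC were in none of the 36 WT and none of the 79 NCoR f/f members, against 1.08% and 0.897% of promoter peaks. The remaining letters, GCGCATGCG for the nuclear respiratory factor NRF1, AGATGGCGG for YY1 and CACGTG for the E-box, were in 0 to 2 peaks of each group, with NRF1 letters at Psmg1 alone.

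In position and composition the Psm peaks lay tighter on the TSS and the Ube2 peaks were richer in G and C. Of the WT Psm peaks, 12 of 16 (75.0%) were centred within 100 bp of the TSS, against 11 of 20 Ube2 peaks (55.0%) and 57.2% of promoter peaks. In the NCoR f/f table the numbers were 29 of 37 (78.4%), 21 of 42 (50.0%) and 51.4%. The median GC content of the central 200 bp was 64.8% for WT Psm, 71.5% for WT Ube2 and 65.5% for WT promoter peaks, and 65.0%, 73.0% and 65.5% in the NCoR f/f table. Median peak widths were 281.5 bp for WT Psm, 311.5 bp for WT Ube2 and 278 bp for WT promoter peaks. A protein-coding gene on the other strand started within 1000 bp of the centre of 3 of 36 WT members (Psma4, Psmd10 and Psme2) and of 6 of 79 NCoR f/f members.

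Many genes of both families had no member peak. Of 50 protein-coding genes with a Psm symbol in the GENCODE M21 annotation, 36 had one in the NCoR f/f table, 4 had only a peak named for a neighbor, and 10 had none within 2000 bp of their own TSS. Of 37 Ube2 genes there, 28 had a member peak, 1 only a peak named for a neighbor and 8 none. In the shallower WT table, 16 Psm and 18 Ube2 genes had a member peak. The catalytic beta subunits of the constitutive proteasome were thinly covered, since Psmb5 and Psmb7 had no peak in either table and Psmb6 had one in the NCoR f/f table only. Of the immunoproteasome subunits, Psmb8 and Psmb10 had an NCoR f/f peak each, at 411 bp upstream and 1303 bp downstream of the TSS named in the files but 6 and 51 bp from a GENCODE TSS of the gene, and the TSS of Psmb9 lay within 2000 bp of a peak named for Tap1, the peptide transporter gene beside it. None of Psmb8, Psmb9 and Psmb10 had a member peak in the WT table, so no response to KLA was measured for them. Ube2l3 and Ube2l6 had no peak in either table. A gene without a peak did not reach the threshold for peaks in these libraries, which does not show that its promoter was closed.

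In the unstimulated NCoR f/f cells, the levels of Psm and Ube2 promoters were centred near that of promoters at large and spread widely around it. Compared per kb of peak, the median over promoter peaks was 124.6 normalized tags per kb, against 123.5 for Psm and 128.7 for Ube2 peaks. The 20S alpha peaks ranged from 116.5 (Psma1) to 261.9 (Psma6) normalized tags per kb, and those of the beta subunits from 59.2 (Psmb4) to 185.0 (Psmb3). Psma6 was covered by 31 and 39 tags and Psmb4 by 5 and 12 tags. In the 19S cap, the ATPase peaks ranged from 86.5 (Psmc2) to 186.7 (Psmc4) normalized tags per kb and the non-ATPase peaks from 89.9 (Psmd1) to 199.7 (Psmd4, a ubiquitin receptor). The immunoproteasome activator genes Psme1 and Psme2, which lie near each other, differed, with 11 and 17 tags (89.1 normalized tags per kb) at Psme1 and 29 and 41 tags (188.5 normalized tags per kb) at Psme2. The inhibitor gene Psmf1 (70.1) and the chaperone genes Psmg2 (70.2), Psmg3 (79.0), Psmg1 (115.2) and Psmg4 (123.5 normalized tags per kb) lay below the median of promoter peaks. No test was run between genes. The SD between the 2 libraries on the log2 scale was 0.39 for Psm and 0.36 for Ube2 peaks, and neighbors in the order of all Psm peaks, and of all Ube2 peaks but the lowest, lay closer than that.

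**Figure D1:**
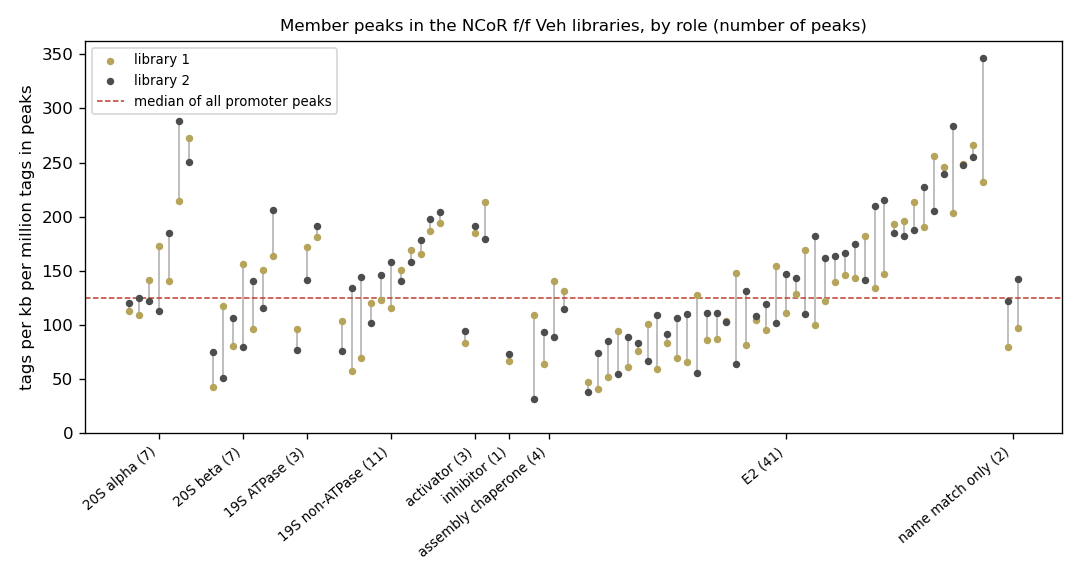
Normalized tags (per 1000000 tags in peaks) per kb of peak at the 79 member peaks of the NCoR f/f table, in order of the mean within each role, with a point for each of the 2 Veh libraries, a line joining them and the median of all promoter peaks dashed. The E2 peaks ran from 43.0 to 289.3 and the chaperone peaks from 70.2 to 123.5 on the mean of both libraries.

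Among the Ube2 peaks of the NCoR f/f table, the highest level per kb was at Ube2d3, a broadly acting E2 enzyme, where the peak at 66 bp from a TSS had 25 and 51 tags (289.3 normalized tags per kb). Next was Ube2g1 (261.0). Then came Ube2s (248.5) and Ube2c (242.4), both partners of the anaphase-promoting complex, with Ube2n between them (243.6 normalized tags per kb). Ube2n held the highest share of tags of the Ube2 peaks, with 32 and 61 tags or 85.9 and 119.7 normalized tags. The lowest Ube2 level was that of Ube2e1 798 bp downstream of its TSS, with 10 and 11 tags (43.0 normalized tags per kb). Several Ube2 genes had more than 1 promoter peak, with 4 at Ube2d3 and 3 each at Ube2g1 and Ube2m, and these peaks share a gene and were not counted as replicates. The peaks of 1 gene differed, from 79.5 to 261.0 normalized tags per kb at Ube2g1 and from 99.0 to 289.3 at Ube2d3.

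In the WT table, the highest Psm levels were those of the ATPase genes Psmc4 (523.5 normalized tags per kb over the 6 libraries) and Psmc6 (520.6), at the 85.1 and 84.9 percentiles of WT promoter peaks. Psmd10, whose product gankyrin is a chaperone of the 19S cap, was lowest with 216.4 normalized tags per kb. Among the Ube2 peaks Ube2n was highest (509.1 normalized tags per kb), followed by Ube2c (484.3) and Ube2g1 (452.2), and Ube2cbp was lowest (168.1). The medians of the 16 Psm and 20 Ube2 peaks were 298.4 and 310.5 normalized tags per kb, against 333.6 over WT promoter peaks. Over the 34 WT members that overlapped an NCoR f/f member, levels per kb in WT Veh and in NCoR f/f Veh had a Spearman correlation of 0.578 and a Pearson correlation of 0.543, given as a description since the points share their sequence and base composition.

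The share of all tags in peaks that fell in the member peaks was ordered by condition for Ube2, while for Psm the Veh libraries overlapped those of both other conditions. Psm peaks held 0.156% and 0.143% of tags in the Veh libraries, 0.160% and 0.144% in KLA and 0.143% in each RGFP966 + KLA library. The group means were 0.149% ± 0.00921 (SD, n = 2), 0.152% ± 0.0113 and 0.143% ± 0.000315, and both KLA libraries lay above both RGFP966 + KLA libraries. Ube2 peaks held 0.236% and 0.201% of tags in Veh, 0.198% and 0.193% in KLA, and 0.179% and 0.178% in RGFP966 + KLA. The means were 0.218% ± 0.0248 (SD, n = 2), 0.196% ± 0.00398 and 0.178% ± 0.000414, and the 3 conditions did not overlap. Over all tags of the libraries in place of tags in peaks, the Ube2 shares were 0.00384% in Veh, 0.00313% in KLA and 0.00324% in RGFP966 + KLA. By library they were 0.00487% and 0.00282% in Veh, 0.00349% and 0.00277% in KLA, and 0.00329% and 0.0032% in RGFP966 + KLA, so that on this scale the 3 conditions overlapped and the order by condition was lost. Exact 95% binomial intervals, which cover counting error only, were 0.176% to 0.227% for the lower Veh library and 0.161% to 0.198% for the higher RGFP966 + KLA library, and so they overlapped. With 2 libraries against 2, an exact permutation test cannot give a two-sided p below 0.333. All promoter peaks together held 59.1% and 56.7% of tags in Veh, 56.4% and 54.9% in KLA, and 54.8% and 54.9% in RGFP966 + KLA. In the NCoR f/f table the shares were 0.163% and 0.165% for Psm and 0.187% and 0.207% for Ube2, over another set of peaks.

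**Figure D2:**
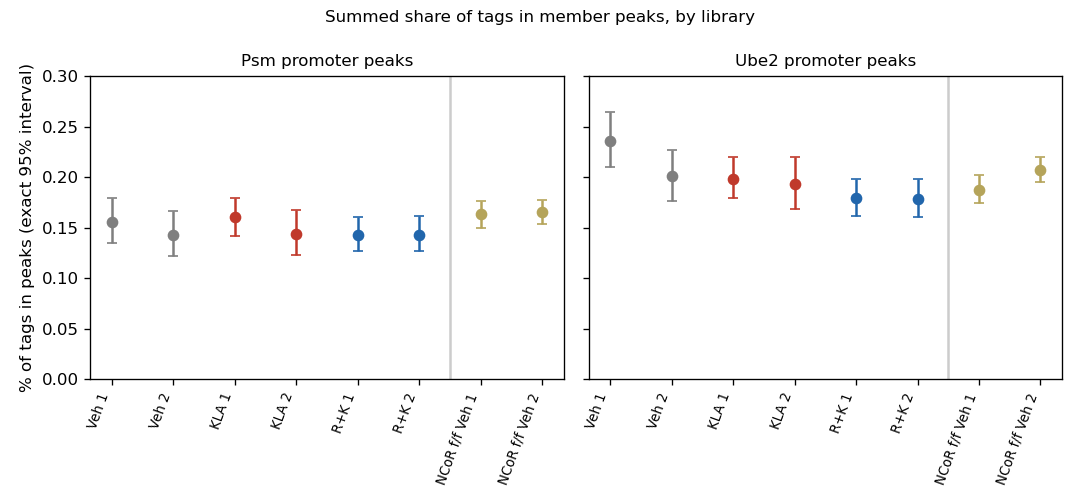
Percent of the tags in peaks that fell in Psm (left) and Ube2 (right) promoter peaks, by library, with exact 95% binomial intervals. R+K stands for RGFP966 + KLA, and the 2 NCoR f/f libraries right of the grey line were counted over another set of peaks. The WT Ube2 shares ran from 0.236% in Veh to 0.178% in RGFP966 + KLA, and the intervals of neighboring libraries overlapped.

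Whether KLA changed the accessibility of these promoters was tested in 1 fit of edgeR's quasi-likelihood test over all 9698 WT peaks, with a call at a Benjamini-Hochberg adjusted p under 0.05 and over 2-fold. All 36 members had at least 4 tags in 1 library and entered the fit. For KLA against Veh, 0 of 36 members were called in either direction, where 3.3% of all peaks were called as gained and 1.73% as lost, and 1.06% and 1.32% of promoter peaks. At an unadjusted p under 0.05 the test had 4 members (11.1%), against 19.5% of all peaks and 12.9% of promoter peaks. DESeq2 called 0 members and 0 of all peaks, with 0 members and 570 of all peaks at an unadjusted p under 0.05. The libraries of both conditions did not overlap at 14 members (38.9%), 5 higher and 9 lower in KLA, against 47.9% of all peaks and 43.1% of promoter peaks. By direction, 929 promoter peaks were higher and 1190 lower, and 2458 and 2188 of all peaks. Ube2r2 and Ube2z, counted as lower, were among the reproducible peaks of Veh alone, and Psmd6, counted as higher, of KLA alone. Counts of members without overlap, in each comparison, are therefore not independent of the selection of peaks. The median fitted log2 fold change was 0.09 for Psm and -0.18 for Ube2 peaks, beside 0.02 over all peaks and -0.05 over promoter peaks. The Psm median was -0.07 without KLA library 1.

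The largest KLA difference of a Psm peak was at Psmd8, a lid subunit of the 19S cap, whose peak is centred 26 bp upstream of the TSS. It had 147.3 and 132.1 normalized tags in Veh and 69.5 and 68.5 in KLA, and both KLA libraries lay below both Veh libraries. The log2 fold change was -1.01 (SE 0.38), with an adjusted p of 0.108 by edgeR, so it was not called. Its level with RGFP966 + KLA was also low, 83.9 and 61.8 normalized tags (log2 fold change -0.93 against Veh, SE 0.35, edgeR adjusted p 0.0797).

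Of the 20S core peaks, Psma6 had 100.8 and 148.6 normalized tags in Veh and 85.6 and 68.5 in KLA (log2 fold change -0.64, SE 0.38, edgeR adjusted p 0.364), and Psma4 had 77.6 and 90.8 in Veh and 96.2 and 102.8 in KLA (0.23, SE 0.40). Neither peak overlapped between Veh and KLA, and they went opposite ways. The Psma6 peak was among the reproducible peaks of Veh and of RGFP966 + KLA but not of KLA. Its difference is not independent of that selection. Over all tags of the libraries in place of tags in peaks, the Psma4 libraries of Veh and KLA overlapped. Psmb3, the sole beta subunit gene with a WT member peak, had 85.3 and 74.3 normalized tags in Veh and 123.0 and 68.5 in KLA, with overlapping libraries. Psme2, a subunit of the activator tied to antigen processing, had 155.1 and 82.6 normalized tags in Veh, 123.0 and 94.2 in KLA, and 123.4 and 108.1 in RGFP966 + KLA. The Veh libraries of Psme2 spanned those of both other conditions, and its log2 fold change for KLA was -0.10 (SE 0.36). The other Psm peaks had log2 fold changes between -0.15 and 0.42, none with an unadjusted p under 0.05. The upper end was that of Psmc4 and of Psmd6, and Psmd6 was among the reproducible peaks of KLA alone. Psmd10, at the lower end, was among those of RGFP966 + KLA alone. The values of Psmd6 and Psmd10 are not independent of that selection.

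Among E2 genes, Ube2d3 had a pair of WT peaks about its alternative starts that went different ways. The peak 2 bp upstream of a TSS had 302.4 and 156.9 normalized tags in Veh against 117.6 and 137.1 in KLA, with a log2 fold change of -0.88 (SE 0.32, edgeR adjusted p 0.0906). The peak at 172 bp had 124.1 and 82.6 in Veh and 117.6 and 162.8 in KLA. Its libraries overlapped, and its log2 fold change was 0.38 (SE 0.36). It was among the reproducible peaks of KLA alone, so its value is not independent of that selection. The difference between these peaks was not tested. The first of them rests on Veh library 1, since without Veh library 1 its log2 fold change was -0.32, while without Veh library 2 it was -1.27 and was called (adjusted p 0.0248).

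Ube2g1 was the E2 gene with the largest higher value in KLA, with 124.1 and 107.3 normalized tags in Veh and 187.1 and 188.5 in KLA. Its KLA libraries were close to each other and above both Veh libraries, and the log2 fold change of 0.69 (SE 0.32) had an edgeR adjusted p of 0.217. With RGFP966 + KLA the peak had 123.4 and 113.3 normalized tags, between both Veh values. Ube2n and Ube2v1, whose products pair to form signaling chains, had log2 fold changes of 0.24 (SE 0.28) and -0.10 (SE 0.40) for KLA, both with overlapping libraries.

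**Figure D3:**
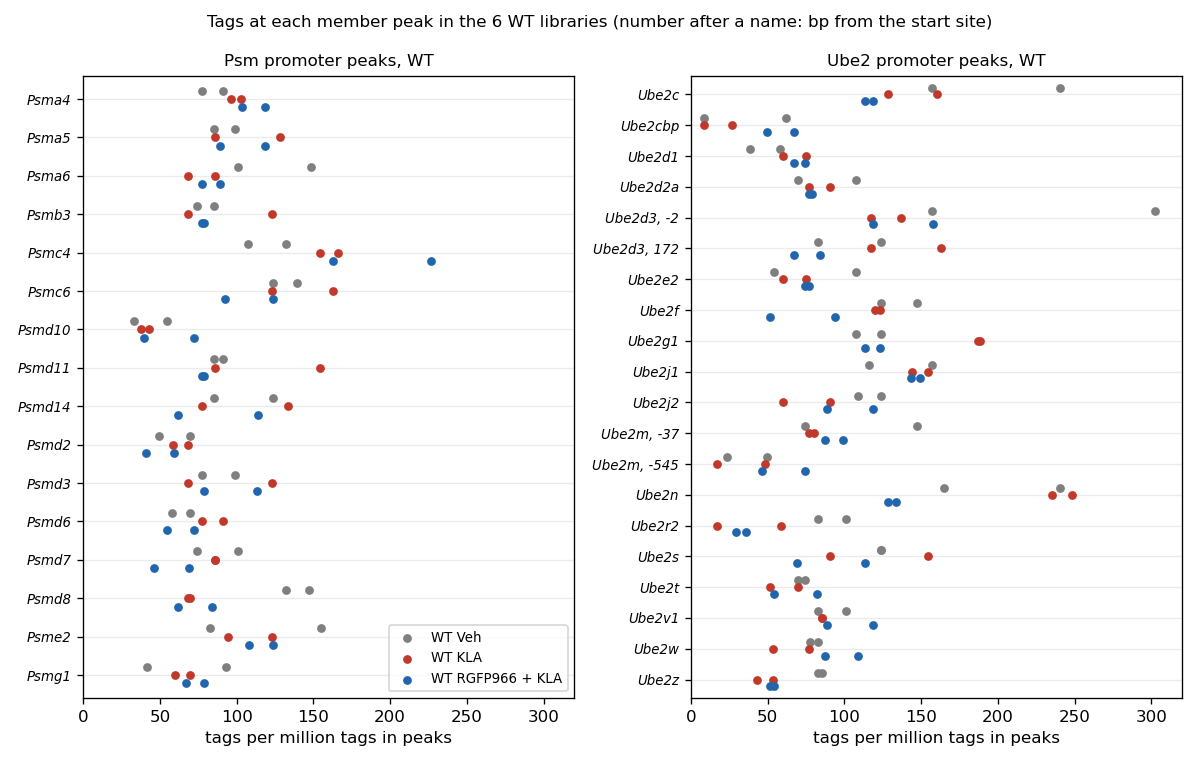
Normalized tags (per 1000000 tags in peaks) at the 36 WT member peaks, with 2 points per condition in grey for Veh, red for KLA and blue for RGFP966 + KLA. At Psmd8 both KLA points (68.5 and 69.5) lie left of both Veh points (132.1 and 147.3), at Ube2n both RGFP966 + KLA points (128.4 and 133.9) lie left of all others, while 12 of the 36 peaks overlap in all 3 comparisons.

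RGFP966 + KLA against KLA asked whether inhibition of HDAC3 altered these promoters under TLR4 stimulation. Again 0 of 36 members were called, with 0.237% of all peaks called as gained and 0.103% as lost. There were 5 members with an unadjusted p under 0.05 (13.9%), against 13.8% of all peaks and 11.0% of promoter peaks, and DESeq2 called 0 members and 0 of all peaks, with 1 member and 144 of all peaks at an unadjusted p under 0.05. Libraries did not overlap at 13 members (36.1%), against 45.8% of all peaks. The median log2 fold change was -0.10 for Psm and 0.06 for Ube2 peaks, beside 0.03 over all peaks and -0.01 over promoter peaks. The Psm median was 0.19 without KLA library 1 and 0.08 with library sizes from all tags, a scaling that moved the median of all peaks from 0.03 to 0.21.

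Ube2n had the lowest unadjusted p of this comparison among the members. It had 235.3 and 248.4 normalized tags in KLA and 128.4 and 133.9 in RGFP966 + KLA, against 240.4 and 165.1 in Veh. Both RGFP966 + KLA libraries were below the other 4 libraries, and the log2 fold change from KLA was -0.87 (SE 0.27, edgeR p 0.0023, adjusted p 0.118). With library sizes from all tags it was -0.7 (edgeR p 0.0714, adjusted p 0.505). On that scale both KLA libraries stayed above RGFP966 + KLA, but Veh library 2 lay below both RGFP966 + KLA libraries. Ube2g1 was lower by a log2 fold change of -0.66 (SE 0.29, adjusted p 0.281). Ube2f, one of the NEDD8 E2 enzymes, had 123.0 and 119.9 normalized tags in KLA and 93.8 and 51.5 in RGFP966 + KLA. Its log2 fold change was -0.73 (SE 0.35, edgeR adjusted p 0.339). The Ube2f peak was among the reproducible peaks of Veh and of KLA but not of RGFP966 + KLA. This difference is not independent of that selection. The Ube2d3 peak at 172 bp had 83.9 and 66.9 normalized tags in RGFP966 + KLA, below both KLA libraries. Its log2 fold change was -0.83 (SE 0.34, edgeR adjusted p 0.253). That peak was among the reproducible peaks of KLA alone, where it was high, so its difference is not independent of that selection. Ube2cbp, the ligase gene, had the largest higher value, from 26.7 and 8.57 normalized tags in KLA to 49.4 and 66.9. It rested on 5 and 1 tags against 10 and 13 tags (log2 fold change 1.52, SE 0.57, edgeR adjusted p 0.209). The Ube2cbp peak was among the reproducible peaks of RGFP966 + KLA alone, where it was high. Its difference is therefore not independent of that selection. In the Psm peaks the differences ran from -0.56 (Psmd7) to 0.48 (Psmd10), and 0 of 16 had an unadjusted p under 0.05. Psmd7 was among the reproducible peaks of KLA alone and Psmd10 among those of RGFP966 + KLA alone. Neither end of this range is independent of that selection.

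For RGFP966 + KLA against Veh, which shares its libraries with the other comparisons, 1 of 36 members was called as lost and 0 as gained, where 2.99% of all peaks were lost and 6.89% gained (2.61% and 2.1% of promoter peaks). There were 7 members with an unadjusted p under 0.05 (19.4%), against 25.4% of all peaks and 17.6% of promoter peaks. Libraries did not overlap at 15 members (41.7%), against 54.7% of all peaks and 48.7% of promoter peaks. The median log2 fold change was -0.04 for Psm and -0.17 for Ube2 peaks, beside 0.04 over all peaks and -0.06 over promoter peaks. With library sizes from all tags these medians were 0.05 for Psm, -0.06 for Ube2 and 0.14 over all peaks.

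The peak called as lost was that of Ube2r2, an E2 enzyme that works with cullin-RING ligases, 622 bp upstream of the TSS named in the files. It had 100.8 and 82.6 normalized tags in Veh, 58.8 and 17.1 in KLA, and 29.6 and 36.0 in RGFP966 + KLA, so that both Veh libraries were above the other 4. The log2 fold change was -1.47 (SE 0.47, a fold of 0.362, edgeR adjusted p 0.034). The peak entered the table through the reproducible peaks of Veh alone, the condition where it was high, so its call as lost is not independent of that selection. These values stand on 13 and 10 tags in Veh, 11 and 2 in KLA and 6 and 7 in RGFP966 + KLA. The call was lost with DESeq2 (0 members called, and 0 or 1 of all peaks with its own or with total-tag size factors, and 742 or 771 of all peaks at an unadjusted p under 0.05), with library sizes from all tags, and on leaving out either Veh or either RGFP966 + KLA library, with adjusted p from 0.00422 to 0.657 over the alternatives. A minimum of 16 tags in 1 library left the peak out. For KLA alone its log2 fold change was -1.09 (SE 0.47, edgeR adjusted p 0.177). In the NCoR f/f table the overlapping peak had 56.4 and 74.5 normalized tags, and a second Ube2r2 peak 94 bp upstream of the TSS had 24.2 and 39.2.

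Other members with a low unadjusted p against Veh were mostly E2 genes with lower values. Ube2c, the mitotic partner of the anaphase-promoting complex, had 240.4 and 156.9 normalized tags in Veh, 160.4 and 128.5 in KLA and 113.6 and 118.4 in RGFP966 + KLA. Both RGFP966 + KLA libraries were below the other 4, and the log2 fold change against Veh was -0.78 (SE 0.30, edgeR adjusted p 0.089), or -0.43 without Veh library 1. With library sizes from all tags it was -0.71 (edgeR adjusted p 0.349), and KLA library 2 was then below both RGFP966 + KLA libraries. Ube2f (-0.89, SE 0.36, edgeR adjusted p 0.107), the Ube2d3 peak 2 bp upstream (-0.74, SE 0.29, adjusted p 0.0982) and Ube2n (-0.63, SE 0.30, adjusted p 0.165) were not called either. The value of Ube2n was -0.33 without Veh library 1. That of Ube2f is not independent of its selection, as the peak was not among the reproducible peaks of RGFP966 + KLA. Psmc4, an ATPase of the 19S cap, went the other way, from 131.8 and 107.3 normalized tags in Veh to 165.8 and 154.2 in KLA and 162.9 and 226.6 in RGFP966 + KLA. Its log2 fold change was 0.69 (SE 0.31, edgeR adjusted p 0.145), or 0.44 without RGFP966 + KLA library 2, and all 4 stimulated libraries were above both Veh libraries. Over all tags of the libraries in place of tags in peaks, KLA library 2 of Psmc4 was below Veh library 1. Of the E2 genes for ubiquitin-like proteins, Ube2m, which serves NEDD8, had log2 fold changes of -0.26 (SE 0.36) at the peak 37 bp upstream and 0.74 (SE 0.52) at that 545 bp upstream. Ube2z, which serves FAT10, had a log2 fold change of -0.66 (SE 0.42). The Ube2m peak 545 bp upstream was among the reproducible peaks of RGFP966 + KLA alone, and that of Ube2z among those of Veh alone. Neither of these values is independent of that selection.

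**Figure D4:**
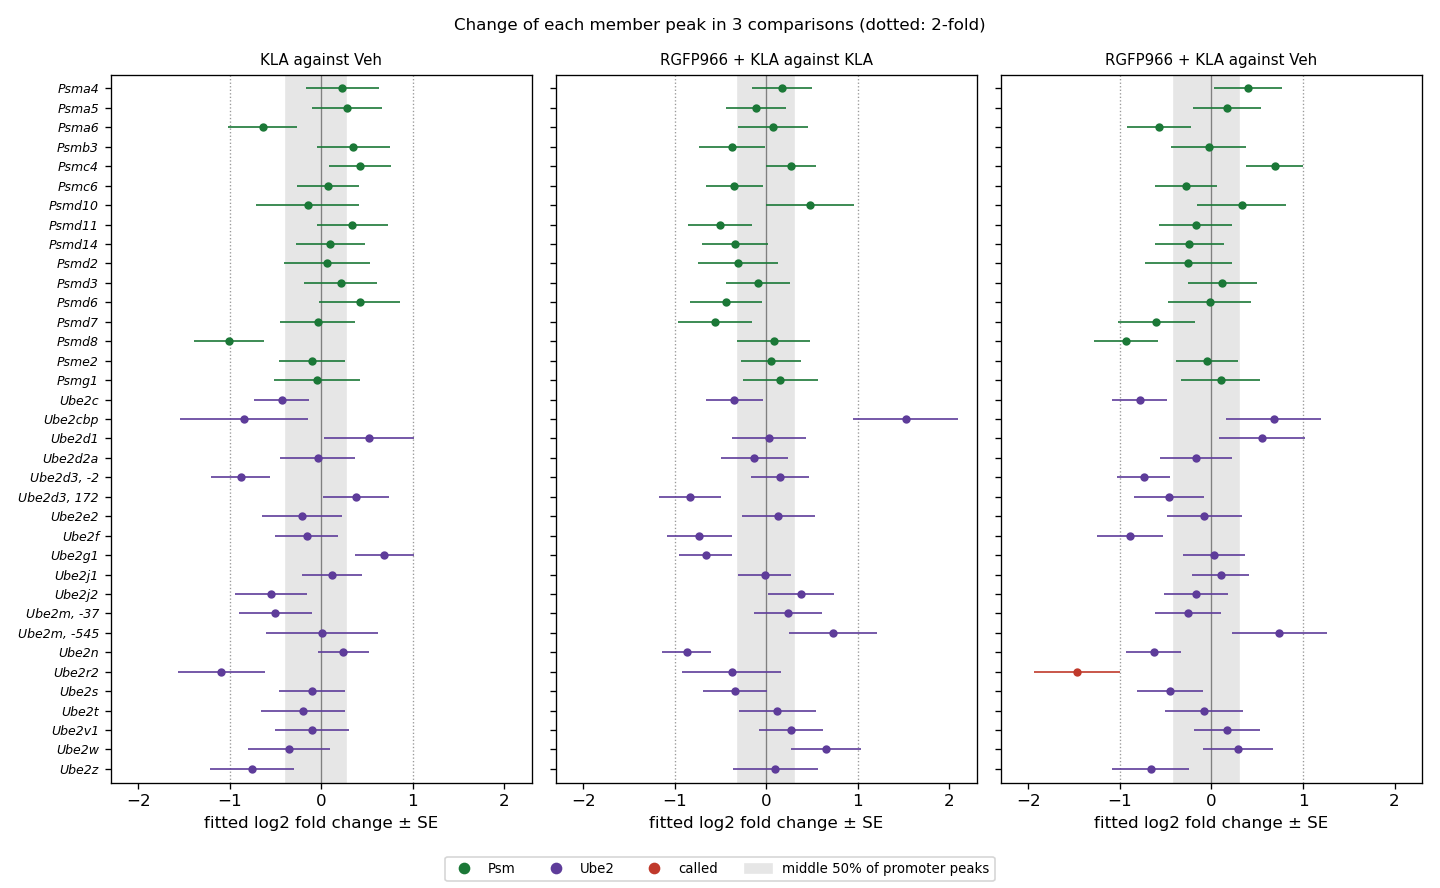
Fitted log2 fold changes with SE (bars) of the 36 WT members in the 3 comparisons, Psm in green, Ube2 in purple and the called peak in red, with the middle 50% of promoter peaks shaded and 2-fold dotted. Ube2r2 (-1.47) is the called peak of RGFP966 + KLA against Veh, where the other members run from -0.93 to 0.74.

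The sets of reproducible peaks (IDR, irreproducible discovery rate) from which the WT table was merged counted as follows. Of the 16 Psm peaks, 8 were in the Veh set, 11 in the KLA set and 13 in the RGFP966 + KLA set, and 6 in all 3. Of the 20 Ube2 peaks, 12, 10 and 16 were in these sets and 7 in all 3. The same shares over promoter peaks were 60.7%, 60.7% and 82.4%, with 39.0% in all 3. Peaks found in the KLA set alone were 3 of 16 Psm (18.8%) and 1 of 20 Ube2 (5.0%), against 6.23% of promoter peaks. Those found in the RGFP966 + KLA set alone were 3 of 16 Psm (18.8%) and 6 of 20 Ube2 (30.0%), against 21.4% of promoter peaks. Ube2r2 and Ube2z were the members found in the Veh set alone. In the NCoR f/f table, 29 of 37 Psm (78.4%) and 26 of 42 Ube2 peaks (61.9%) were in the set of the Veh libraries analysed here, against 72.6% of promoter peaks, and the others entered through sets of conditions not analysed here, Psmb8 among them.

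Other genes of the pathway were covered from a list that holds 4 ubiquitin genes, 9 E1 genes and 12 proteasome partners. In the WT table, 1 ubiquitin gene, 3 E1 genes and 5 partners had promoter peaks, and 0 of these peaks was called in any comparison, where the share of promoter peaks called in 1 direction was at most 2.61%. Adrm1, a ubiquitin receptor of the 19S cap, had the highest level with 28 to 53 tags per library (899.9 normalized tags per kb), and log2 fold changes of -0.01 (SE 0.26) for KLA and -0.15 (SE 0.26) for RGFP966 + KLA against Veh. The genes of the transcription factors Nfe2l1, which induces proteasome genes when the proteasome is impaired, and Nfe2l2 had log2 fold changes for KLA of 0.01 (SE 0.39) and -0.78 (SE 0.49) at the pair of Nfe2l1 peaks and 0.11 (SE 0.33) at Nfe2l2. Nae1, a subunit of the NEDD8 E1 enzyme, had 9 and 14 tags in Veh, 12 and 10 in KLA and 9 and 9 in RGFP966 + KLA, with a log2 fold change of -1.01 against Veh (SE 0.44, edgeR adjusted p 0.136).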

How the data were processed

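ATAC-seq tags were analysed in 8 libraries. According to the methods, the authors aligned the reads to mm10 (Bowtie2), used HOMER to find peaks, kept those reproducible by IDR, merged them across conditions and annotated them; versions are not given in the sources used here. The deposited values are raw tag counts per peak, per the file headers with at most 3 tags per position. The 36 WT and 79 NCoR f/f members, and the gene lists, were chosen with earlier results of these data known. Counts were scaled to total tags in peaks (116733 to 202523 in WT libraries), and WT peaks with at least 4 tags in 1 library were fitted together with edgeR 4.0.16 (R 4.3.3) by its quasi-likelihood test, checked on simulated data. A call needed a Benjamini-Hochberg adjusted p under 0.05 and over 2-fold. Named peaks were those highest or lowest by share of tags, called, separated between conditions with the largest fold changes, or of fixed genes; others, such as those lowest or highest per kb or shown for their motif, were added after their values were seen. DESeq2 1.42.0, limma 3.58.1 (loess offsets), other scalings, filters and windows, and each library left out in turn were tried as alternatives. Motifs were read with samtools 1.23.1 and pysam 0.24.0 from GRCm38.p6, where 86 of 86 RefSeq promoter windows matched, with genes of GENCODE M21. A macrophage marker and a fixed Ube2 gene are not reported here. Per-library columns without a sample numbered 0.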

Additional observations from a re-analysis of the deposited data

How the results depend on the processing

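Without RGFP966 (KLA against Veh), and between RGFP966 + KLA and KLA, 0 members were called under each alternative, except that without WT Veh replicate 2 the Ube2d3 peak was called for KLA. Psmd8, Psmc4, Ube2r2, Ube2n, Ube2g1, Ube2c and the Ube2d3 peak 2 bp upstream were followed through the alternatives, each in selected comparisons. None of their fold changes changed sign, and those of other named peaks were not followed. Under the alternatives given here the Psm median did change sign in each of the 3 comparisons. The Ube2 median (0.06) did so between RGFP966 + KLA and KLA, to -0.01 without WT KLA replicate 2 or WT RGFP966 + KLA replicate 1. Peaks called for KLA against Veh (488) numbered 305 with library sizes from all tags, 0 with DESeq2 under either scaling (570 and 588 at an unadjusted p under 0.05), and 155 to 394 with a library left out. For RGFP966 + KLA against KLA (33) they numbered 53 with all tags, 87 with loess offsets (23 higher and 64 lower), 0 with DESeq2 (144 and 160 unadjusted), 57 with the 4 libraries compared and 0 to 60 with a library left out. For RGFP966 + KLA against Veh (958) they numbered 0 and 1 with DESeq2 (742 and 771 unadjusted), 623 with at least 16 tags and 319 to 1002 with a library left out. The member call there (1) became 0 with all tags, DESeq2 or at least 16 tags, and 0 to 1 with a library left out, the 1 without WT Veh replicate 2 being Ube2d3. Libraries with the same replicate number did not deviate together (correlations 0.0176 to 0.0232), so the numbers were not taken as pairing, and a replicate block gave 558, 56 and 1036 peaks and 0, 0 and 1 members. Median log2 fold changes with a library left out ran from -0.07 to 0.23 (Psm) and -0.30 to -0.09 (Ube2) for KLA against Veh, -0.16 to 0.19 and -0.01 to 0.25 for RGFP966 + KLA against KLA, and -0.14 to 0.04 and -0.24 to -0.08 for RGFP966 + KLA against Veh. With all tags those of RGFP966 + KLA against KLA were 0.08 and 0.23. As percent of all tags, the Psm and Ube2 shares were 0.00418 and 0.00504 in NCoR f/f, 0.00261 and 0.00384 in Veh, 0.00244 and 0.00313 in KLA, and 0.0026 and 0.00324 in RGFP966 + KLA, so Ube2 in KLA was then not above RGFP966 + KLA, and the libraries of the 3 conditions overlapped. Within 1000 bp the NCoR f/f Psm share was 0.154%. Without the name-only matches Psmc3ip and Ube2cbp, an alternative chosen after seeing the data, it was 0.161%, and the Ube2 share with RGFP966 + KLA 0.173%. The cause of these changes was not tested. Member peaks of 9 to 17 median tags per library limit what could be detected.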

Other observations

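Peaks farther than 2000 bp from a TSS that were named for Psm or Ube2 genes numbered 4 and 6 in the WT table, and 2 of them were called. Both entered the table through the reproducible peaks of RGFP966 + KLA alone, where they were high, so their gain against Veh is not independent of that selection. The peak 6868 bp downstream of the TSS of Ube2z, at chr11:96058392-96058600 (mm10), had 0 tags in both Veh libraries, 9 and 3 in KLA, and 14 and 13 in RGFP966 + KLA. Against a limit of 3 tags over the Veh group it was at least 3.29-fold higher in KLA (edgeR adjusted p 0.00873) and at least 5.67-fold higher in RGFP966 + KLA (edgeR adjusted p 0.000242). The promoter peak of Ube2z, which entered through the Veh set alone, was lower in both conditions than in Veh and was not called, with 85.3 and 82.6 normalized tags (per 1000000 tags in peaks) in Veh, 53.5 and 42.8 in KLA and 54.3 and 51.5 in RGFP966 + KLA. The peak 44496 bp downstream of the TSS of Psma6, at chr12:55443216-55443426, had 1 and 1 tags in Veh, 6 and 7 in KLA and 12 and 15 in RGFP966 + KLA. Its log2 fold change was 2.31 (SE 0.81, edgeR adjusted p 0.0954) for KLA and 2.97 (SE 0.70, edgeR adjusted p 0.00343) for RGFP966 + KLA against Veh. Over all 4716 distal WT peaks, 268 were gained and 103 lost with KLA, and 565 gained and 161 lost with RGFP966 + KLA against Veh. A peak is named for the gene of the nearest TSS, which does not show that it acts on that gene.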
